A study of Mus musculus with 4 samples.

Results

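The genes Mybl1, Tcfl5, Brdt, Rfx2, Sox30 and Crem encode regulators of the transcription programme of pachytene spermatocytes and spermatids. They were chosen by name, and all 6 matched the mouse gene table by symbol. Their sites of open chromatin were taken as the ATAC-seq peak intervals lying inside the gene or within 10 kb of either of its ends. This gave 12 of the 21004 intervals of the Znhit1 knockout list and 9 of the 15376 intervals of the control list. Each of the 6 genes had at least 1 interval in both lists, as did 46.1% of all 21887 protein-coding genes. At every one of the 6 genes 1 knockout interval overlapped 1 control interval at or near a gene end. A 1-to-1 pair with its knockout interval within 1 kb of a gene end was found at 26.4% of coding genes.

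ATAC-seq uses the Tn5 transposase to cut and tag accessible DNA, so that an interval marks a stretch where cuts piled up. The cells were mouse pachytene spermatocytes from testis, with the tag P35 in the sample titles, and had either the genotype Znhit1_KO or the genotype CTRL, with 2 libraries named for each. ZNHIT1 is a subunit of the SRCAP complex, which places the histone variant H2A.Z into nucleosomes, and the comparison asks how its loss bears on accessibility at this stage. The sources used here do not say how the knockout was made, in which cells it acts, or whether the controls carry any of its alleles. For each genotype 1 peak list, recorded for replicate 1, was analysed here. No difference below therefore has a replicate check or a p-value, and the read depth of the lists is unknown. The lists hold positions only, so width is the only measure of size. The number of lines an interval stood on is given beside it, but the lists do not say what a repeated line stands for.

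The labelled cell type was set against marker genes by the same 10 kb rule. Of 10 pachytene markers, 9 had an interval in both lists and Pgk2 had one in the knockout list alone. None of 8 spermatid markers had intervals in both lists, and the neighbours Prm2 and Tnp2 were both reached by 1 knockout interval of 227 bp. Over all coding genes, 46.1% had an interval in both lists, 13.9% in the knockout list only and 5.85% in the control list only. Spermatogonial markers numbered 9, with 4 found in both lists, 2 only in the knockout list and 2 only in the control list. Both lists held 3 of 8 Sertoli markers and the knockout list another 2, while Wt1, Rhox5 and Cldn11 had no interval. Of 5 Leydig markers, Cyp11a1 and Cyp17a1 were in the control alone and the other 3 in neither. Of 8 peritubular, endothelial and immune markers, 1 had intervals in both lists and 5 had them only in the knockout list, beside the 13.9% of coding genes. The part that other cell types have in the intervals of the 6 regulators was not tested, nor was that of gene length in the marker counts.

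Spermatocytes switch on a large set of genes at pachytene, some used at once and many needed only after the meiotic divisions. MYBL1 (A-MYB) is the MYB family factor that drives much of this switch, including the precursors of pachytene piRNAs, and TCFL5 is a basic helix-loop-helix protein of the same stage. BRDT, the testis member of the BET family, reads acetylated histones through its bromodomains. RFX2 is a winged-helix factor for ciliary and spermatid genes, SOX30 is an HMG-box factor needed in spermatids, and CREM is a cAMP-responsive activator of postmeiotic genes.

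The promoters of Tcfl5, Brdt, Rfx2 and Sox30 are printed because promoter entries were matched for these 4 of the 6 genes, and not for Mybl1 and Crem. The overlapping intervals of these 4 genes lie on or next to their promoters. Each runs 5′ to 3′ on the gene's own strand, with 250 bases before the annotated start and 50 bases from it on, from RefSeq on GRCm38.p6, the assembly of mm10. Tcfl5 lies at chr2:180642642-180642941 on the minus strand and Brdt at chr5:107330944-107331243 on the plus strand. Rfx2 lies at chr17:56830959-56831258 on the minus strand and Sox30 at chr11:45980060-45980359 on the plus strand. Capitals mark matches on either strand to short words of the kinds that these families recognise, namely AACNG for MYB factors, TGACG for CREM and its relatives, CACGTG for helix-loop-helix proteins, ACAAT for SOX factors and GTTNCC for RFX factors. Neighbouring matches that overlap form 1 longer run of capitals.
Tcfl5: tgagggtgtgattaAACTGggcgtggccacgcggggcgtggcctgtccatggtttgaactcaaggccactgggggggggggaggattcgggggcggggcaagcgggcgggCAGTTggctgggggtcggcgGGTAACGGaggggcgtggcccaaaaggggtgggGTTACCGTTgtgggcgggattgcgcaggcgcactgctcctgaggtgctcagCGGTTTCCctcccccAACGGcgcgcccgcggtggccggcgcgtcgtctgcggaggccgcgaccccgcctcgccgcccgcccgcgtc
Brdt: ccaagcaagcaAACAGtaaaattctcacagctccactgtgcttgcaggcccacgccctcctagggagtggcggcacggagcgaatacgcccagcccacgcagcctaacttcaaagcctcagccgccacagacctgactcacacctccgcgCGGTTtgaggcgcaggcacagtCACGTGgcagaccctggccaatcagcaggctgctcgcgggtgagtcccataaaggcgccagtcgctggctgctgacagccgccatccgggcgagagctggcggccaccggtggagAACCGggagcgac
Rfx2: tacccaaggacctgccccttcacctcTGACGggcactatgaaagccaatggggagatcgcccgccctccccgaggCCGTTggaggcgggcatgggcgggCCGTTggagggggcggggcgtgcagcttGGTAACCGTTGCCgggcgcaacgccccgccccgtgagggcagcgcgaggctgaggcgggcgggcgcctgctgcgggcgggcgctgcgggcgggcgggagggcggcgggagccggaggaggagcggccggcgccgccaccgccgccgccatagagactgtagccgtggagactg
Sox30: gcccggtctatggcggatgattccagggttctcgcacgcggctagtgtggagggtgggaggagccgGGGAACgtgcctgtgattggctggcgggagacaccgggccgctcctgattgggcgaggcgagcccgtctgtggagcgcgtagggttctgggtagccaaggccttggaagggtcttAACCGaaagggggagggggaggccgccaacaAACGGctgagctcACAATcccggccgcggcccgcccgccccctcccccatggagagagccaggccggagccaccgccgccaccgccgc

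All 6 genes carried intervals of the knockout and the control list, against 60.0% of coding genes with a knockout interval and 52.0% with a control interval. In all, 46.1% of coding genes had both and 34.2% neither. The members were each longer than 55.1% to 84.0% of coding genes, with windows of 40.7 to 91.4 kb. With a window of 1 kb all 6 still had intervals in both lists, beside 37.3% of coding genes. The part that gene length has in these counts was not tested. At 26.4% of coding genes a knockout interval within 1 kb of a gene end formed a 1-to-1 pair with a control interval, as it did at all 6. The pair was the widest interval in each list at each gene.

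**Figure D1:**
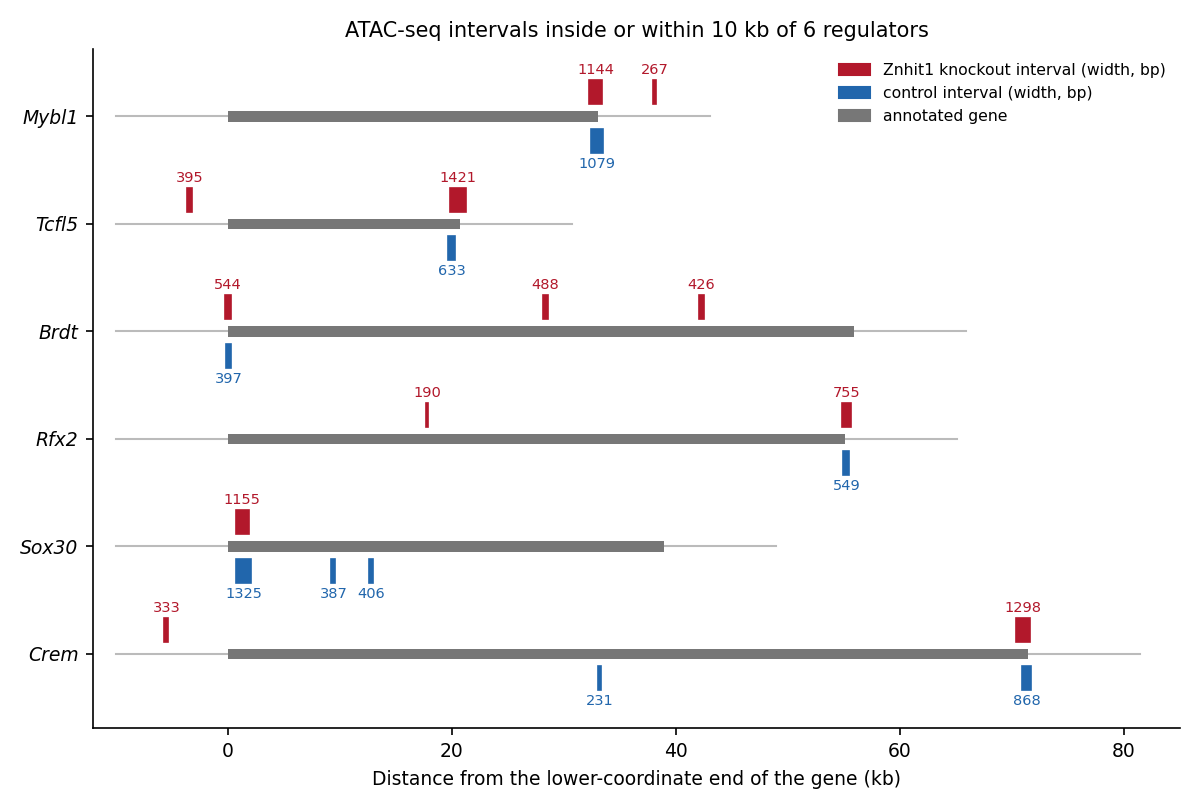
Intervals at the 6 genes, with distance from the lower-coordinate end of each gene in kb on the horizontal axis and 1 row per gene; red bars above the grey gene are knockout intervals, blue bars below it are control intervals, and numbers are widths in bp. A red and a blue bar stand together at 1 end of every gene, and Brdt has 2 further knockout intervals where Sox30 has 2 further control intervals.

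Mybl1 spans chr1:9667407-9700439 (mm10). At its higher-coordinate end a knockout interval of 1144 bp ran from 9699704 to 9700847 and a control interval of 1079 bp from 9699818 to 9700896. These shared 1030 bp, which is 90.0% of the knockout interval and 95.5% of the control interval. The log2 width ratio, knockout over control, was 0.08, near the median of 0.03 over all 6296 1-to-1 pairs. The interval stood on 5 lines of the knockout list and on 4 lines of the control list, where 2.39% and 3.73% of intervals stood on 4 or more. The master regulator of the pachytene programme thus had 1 of the wider sites of either list, with 97.0% of knockout and 95.0% of control intervals narrower, and its edges moved little.

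Tcfl5 spans chr2:180621956-180642691 and is transcribed from its higher-coordinate end. Its knockout interval of 1421 bp (180641807 to 180643227) reached from 536 bp upstream of the annotated start to 884 bp downstream. The control interval of 633 bp (180641639 to 180642271) lay from 420 to 1052 bp downstream of the start and did not reach it. The knockout interval therefore covered all 300 bases of the promoter printed above and the control interval 0. They shared 465 bp, which is 32.7% of the knockout interval and 73.5% of the control interval, against medians over all pairs of 85.9% and 89.2%.

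The knockout interval of Tcfl5 was 2.24 times as wide as the control interval, a log2 ratio of 1.17, and stood on 5 lines against 3 in the control list. Of all pairs, 5.78% were at least 2-fold wider in the knockout and 3.76% at least 2-fold narrower. Its upstream edge lay 956 bp beyond that of the control interval, and 0.254% of all pairs had an edge that far apart. Among all 21263 promoter windows of coding genes, 0.804% were overlapped in the knockout list alone with an overlapping control interval beside them, as here. The opposite arrangement was shown by 0.353%. These were 171 and 75 windows, where 7348 windows were overlapped by a knockout interval at all and 6353 by a control interval. Tcfl5 is singled out here after its values were seen. Whether reads too few to be called lay at the promoter in the control was not tested, since the lists hold no signal.

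Brdt spans chr5:107331116-107387061. Its knockout interval of 544 bp (107330880 to 107331423) reached from 314 bp upstream to 229 bp downstream of the annotated start, and contained the whole control interval of 397 bp (107330997 to 107331393). The promoter was covered over 300 bases in the knockout and 247 bases in the control. The log2 width ratio was 0.45. This was the narrowest pair of the 6 genes in both lists, and the only one in which the interval stood on 1 line of each list.

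Among the regulators that act mainly on postmeiotic genes, Rfx2 spans chr17:56775897-56831008 and starts at its higher-coordinate end. Its knockout interval of 755 bp (56830768 to 56831522) contained the control interval of 549 bp (56830859 to 56831407), for a log2 width ratio of 0.46. Both stood on 2 lines and both covered the whole promoter. The knockout interval exceeded the control interval by 91 bp on the gene side and by 115 bp upstream.

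Sox30 spans chr11:45979069-46017992, and the annotated start of its printed promoter lies inside that span. The knockout interval of 1155 bp (45979783 to 45980937) shared 1110 bp with the control interval of 1325 bp (45979828 to 45981152). Each stood on 4 lines and covered the whole promoter. Sox30 was the 1 gene whose site was narrower in the knockout, with a log2 width ratio of -0.20, and its interval ended 215 bp short of the control interval on the gene side.

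Crem spans chr18:3266354-3337773. At its higher-coordinate end the knockout interval of 1298 bp (3336726 to 3338023) reached 517 bp further into the gene than the control interval of 868 bp (3337243 to 3338110). The log2 width ratio was 0.58, and the interval stood on 3 lines in the knockout list and 4 in the control list. An edge difference this large occurred in 4.64% of all pairs. Both intervals also lay inside the long non-coding RNA gene Gm6225, which begins at 3336416 within Crem, so they cannot be assigned to 1 of these genes alone.

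**Figure D2:**
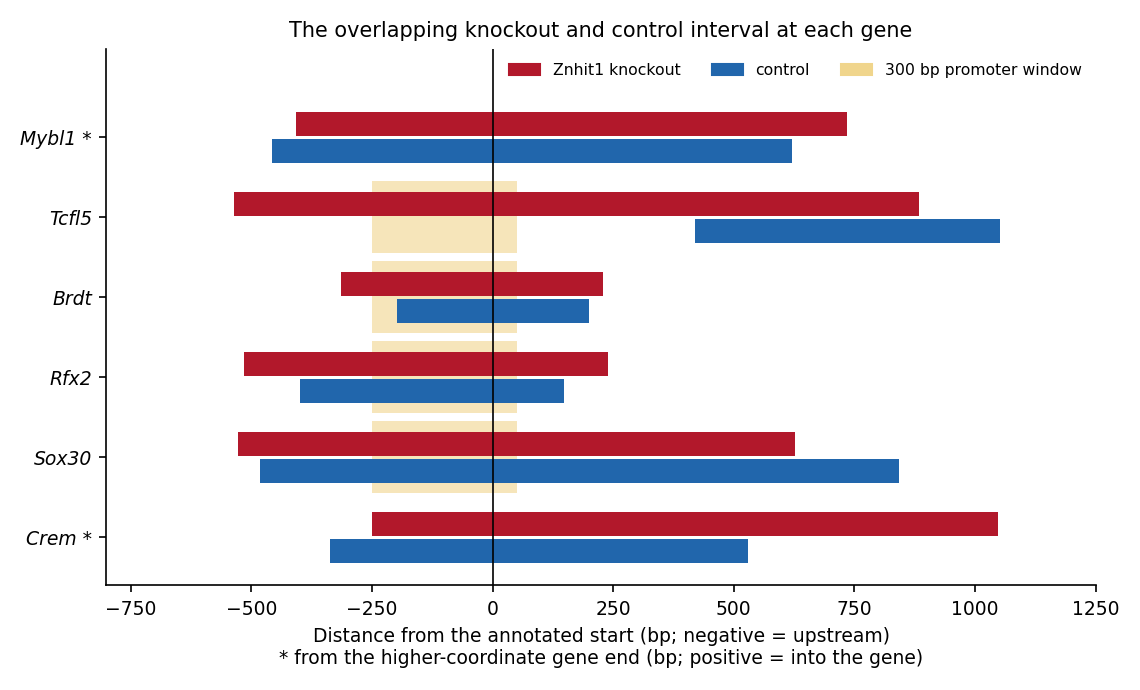
Extent of the overlapping knockout (red) and control (blue) interval at each gene, in bp from the annotated start, or for the starred genes from the higher-coordinate gene end; pale blocks mark the 300 bp promoter windows printed above. The knockout interval at Tcfl5 crosses the start and the control interval begins 420 bp inside the gene, while at the other 5 genes both cross the zero line.

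Across the 6 pairs, 5 were wider in the knockout, against 52.6% of all pairs, with a median log2 ratio of 0.46 against 0.03. The quartiles over all pairs were -0.29 and 0.38. Mybl1 and Sox30 fell between them and the other 4 above them. Only Tcfl5 passed a 2-fold difference, and with 1 list per genotype the spread of these widths between replicates is unknown.

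**Figure D3:**
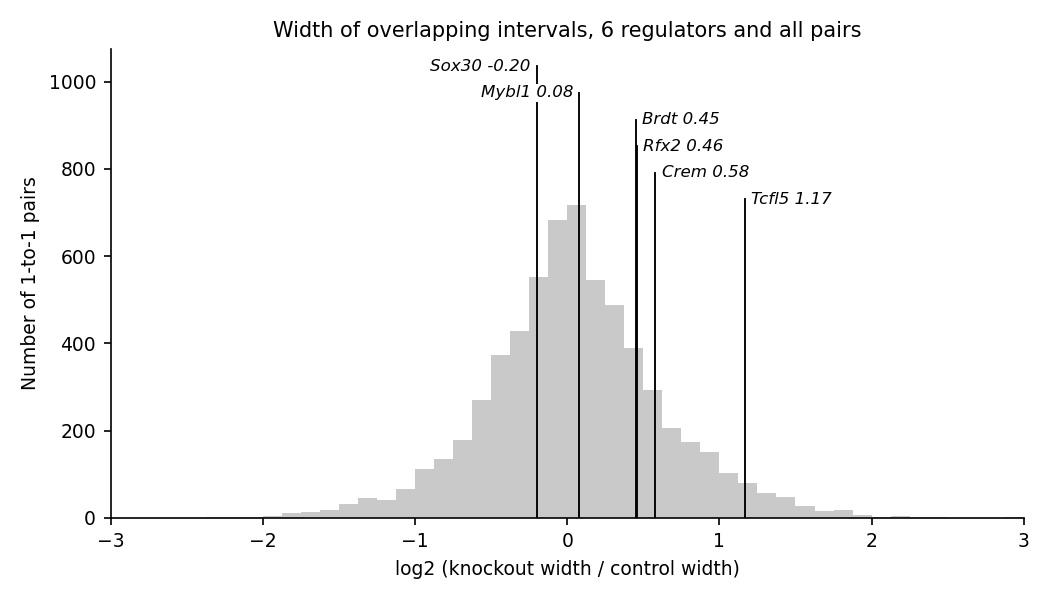
Number of 1-to-1 pairs of overlapping intervals (vertical axis) by log2 ratio of knockout to control width (horizontal axis), with a line for each of the 6 genes. Sox30 at -0.20 is the only line below zero, and Tcfl5 at 1.17 stands furthest to the right.

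Away from these pairs the genotypes shared no site. The knockout list held 6 further intervals of 190 to 488 bp at 5 genes, and the control list 3 of 231 to 406 bp at 2 genes. All knockout ones stood on 1 line, whereas both at Sox30 in the control list stood on 2. Of unshared intervals in the whole lists, 12.6% in the knockout and 18.4% in the control stood on at least 2 lines. Counted over all sites, 6 of 12 knockout and 6 of 9 control intervals of the members were shared, against 32.4% and 44.4% of the whole lists. The shared ones held 75.1% and 82.6% of the members' covered length. The whole lists also include intervals away from genes, so the shares of 32.4% and 44.4% are not of like sites.

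Brdt had the most knockout intervals, 3 against 1 in the control, and 10.5% of coding genes had as many in the knockout. Of its unpaired intervals, that of 488 bp (107359259 to 107359746) and that of 426 bp (107373176 to 107373601) both lay inside the gene, the second also inside the long non-coding RNA gene Gm17202. The nearest control interval was 27866 and 41783 bp away. Sox30 showed the opposite, with 1 knockout interval and 3 in the control, a number reached by 6.50% of coding genes in the control list. Its unpaired control intervals of 387 bp (45988316 to 45988702) and 406 bp (45991674 to 45992079) lay inside the gene, 7379 and 10737 bp from the nearest knockout interval.

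The other unpaired intervals came singly. Mybl1 had a knockout interval of 267 bp (9705403 to 9705669) lying 4964 bp beyond its end. Tcfl5 had one of 395 bp (180618341 to 180618735) that lay 3221 bp beyond the gene and inside its neighbour Col9a3, a collagen gene. Rfx2 had one of 190 bp (56793597 to 56793786) inside the gene and 76 bp from the long non-coding RNA gene Gm41604, and only 6.10% of knockout intervals were narrower. Crem had a knockout interval of 333 bp (3260721 to 3261053) beyond its lower-coordinate end and a control interval of 231 bp (3299428 to 3299658) inside the gene.

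More knockout than control intervals were found at Mybl1, Tcfl5, Brdt and Rfx2, equal numbers at Crem and fewer at Sox30. Over all coding genes, 28.6% had more intervals in the knockout list and 14.1% fewer. The excess rested on the width of the window and on intervals listed once. With a window of 0 or 1 kb the members had 9 intervals in each list, since the knockout intervals beyond the ends of Mybl1, Tcfl5 and Crem fell outside it. With intervals listed at least 2 times, the members had 5 in the knockout and 7 in the control list, and Brdt had none in either. No interval of either list lay between 5301 and 10000 bp from a member. The next ones beyond the window were 3 knockout intervals near Tcfl5, of 382 to 478 bp, the nearest at 11255 bp, and 1 control interval of 495 bp at 16337 bp from Rfx2.

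The 4 printed promoters were rich in G and C. The GC content was 73.0% at Tcfl5, 64.7% at Brdt, 75.7% at Rfx2 and 70.0% at Sox30, against a median of 56.3% over 21263 promoter windows of coding genes. CpG dinucleotides numbered 35, 23, 38 and 28 in the same order, against a median of 13. A knockout interval overlapped 34.6% of these windows and a control interval 29.9%. Overlap in both lists was found for 26.4% of all windows, for 46.5% of the windows with at least 60% GC and for 13.5% of the rest. The promoters of Brdt, Rfx2 and Sox30 were overlapped in both lists and that of Tcfl5 in the knockout list only. Whole coverage in both lists, as at Rfx2 and Sox30, was found for 13.4% of windows.

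Most of the short words marked in the promoters are common among promoters, and since the 4 are rich in G and C the shares are given for all windows and, second, for those with at least 60% GC. AACNG, the MYB core, occurred 6 times at Tcfl5, 3 times at Brdt, 4 times at Rfx2 and 2 times at Sox30, and at least once in 79.1% and 70.6% of windows. AACTGNC, a longer MYB word, was found at Tcfl5 and in 11.9% and 8.28% of windows. GTTNCC, a loose RFX word, was found at Tcfl5, Rfx2 and Sox30 and in 45.3% and 43.6% of windows. In the Rfx2 promoter a match to GTTNCC on each strand and a match to AACNG on each strand overlapped in 1 run that began 123 bases before the start. In the Tcfl5 promoter 3 matches to GTTNCC each overlapped a match to AACNG, and they began 120, 87 and 36 bases before the start when the overlapping word is included.

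CACGTG, an E-box, occurred at Brdt, 78 bases before the start, and in 7.84% and 11.1% of windows. The looser CANNTG was found at Tcfl5, where it overlapped a match to AACNG, and at Brdt, where it is the same site, and in 69.0% and 58.9% of windows. TGACG, the core of the cAMP response element, was found at Rfx2 and in 23.6% and 31.9% of windows. ACAAT, a SOX word, was found at Sox30 and in 27.7% and 10.7% of windows. None of the 4 promoters held the full cAMP response element TGACGTCA (2.23% and 3.06% of windows), the longer SOX word ACAATGG (2.92% and 1.56%) or the stricter RFX word GTTGCCA (4.18% and 3.50%). A match describes the letters and does not show binding. At Tcfl5 every marked word lay inside the knockout interval and outside the control interval.

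Other genes of the programme were counted by the same rule, with 46.1% of coding genes in both lists as the background. Of 30 partners and relatives of the 6 regulators, 24 had intervals in both lists and 4 only in the knockout list, which were Bcl6 (392 bp), Rfx4 (358 bp), Myb (281 bp) and Figla (237 bp). The widest belonged to Tbpl1, a TBP-like factor of spermatids (1109 bp in the knockout, 1688 bp in the control), Rfx1 (1322 and 547 bp) and Taf7l, a TFIID subunit of germ cells (808 and 1300 bp). Among the close relatives, chosen after their values were seen, the CREM relatives Creb1 and Atf1 were in both lists. Fhl5, which encodes the CREM coactivator ACT, had no interval in either list.

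All 19 genes chosen as linked to the piRNA pathway, whose pachytene phase depends on MYBL1 in the mouse, had intervals in both lists. They are a selection and not the full pathway. The widest were at Tdrkh (1238 bp in the knockout, 675 bp in the control), Pnldc1 (1180 and 1056 bp), which trims piRNA ends, and Piwil1 (1095 and 719 bp), a PIWI protein gene. With a window of 1 kb, both lists still held 17 of them, and each list held 1 more that the other did not, while 37.3% of coding genes were in both.

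Of 20 ciliary and flagellar genes of the kind RFX2 regulates, 13 had intervals in both lists and 3 only in the knockout list, the tektin genes Tekt2 (723 bp) and Tekt1 (406 bp) and the axonemal gene Spag6 (673 bp). Those in the control list only were Drc1 (349 bp) and Cfap44 (296 bp). The widest intervals lay at Ccdc39 (1469 bp in the knockout, 278 bp in the control), Dnah1 (1060 and 1004 bp) and Ift88 (925 and 672 bp). With a window of 1 kb the order turned, with 9 genes in both lists, 4 only in the knockout list and 5 only in the control list. Over all coding genes that window gave 37.3%, 13.0% and 6.01%.

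Of 18 postmeiotic genes linked to CREM, 7 had intervals in both lists, 6 only in the knockout list and 5 in neither, beside 46.1%, 13.9% and 34.2% of coding genes. Those with a knockout interval only included Spata18 (654 bp), Zpbp (547 bp), Pgk2 (327 bp) and Izumo1 (248 bp), the sperm protein that binds the egg. The widest were the 932 bp knockout and 1015 bp control intervals that the neighbouring kinase genes Tssk1 and Tssk2 share by this rule, and those of Tssk6 (760 and 668 bp). Prm2 and Tnp2, also in the knockout list only, are likewise both counted from 1 interval of 227 bp. Pgk2 and Ldhc of this group were also among the pachytene markers above. Prm1, Prm2, Tnp1, Tnp2 and Acrv1 were also among the spermatid markers, so this group and those markers are not separate observations. Of these genes, Prm1, Tnp1 and Acrv1 had no interval in either list. With a window of 1 kb, both lists held 4, the knockout list another 4 and neither list 10, beside 37.3%, 13.0% and 43.7% of coding genes. The difference between these groups was not tested. Some of these genes are short, such as Prm1 at chr16:10796332-10796823, and the part that gene length has in these counts was not tested either.

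**Figure D4:**
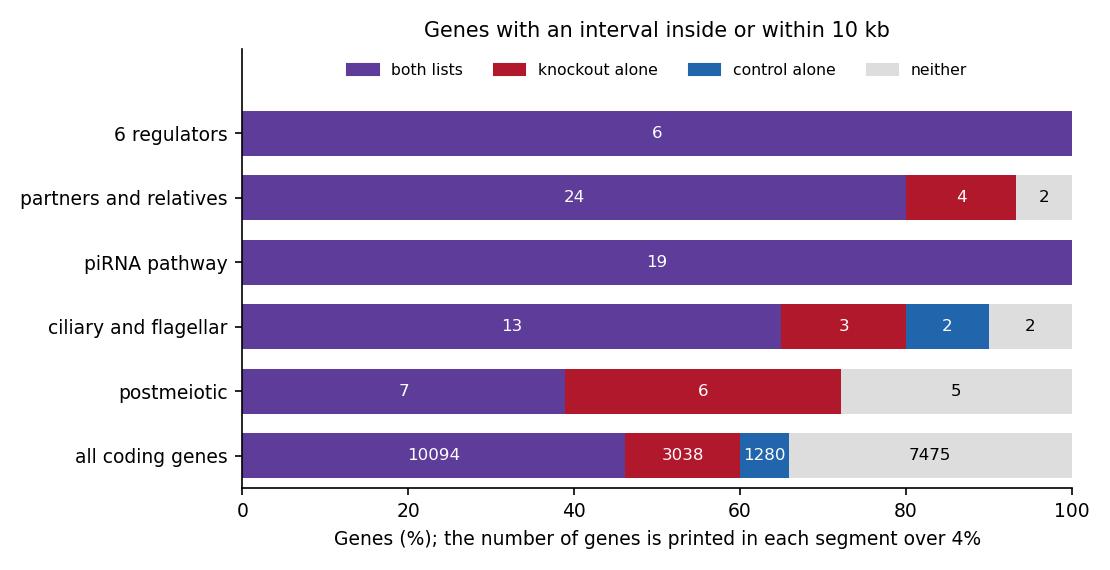
Percentage of genes (horizontal axis) with an interval inside or within 10 kb in both lists (purple), the knockout list alone (red), the control list alone (blue) or neither (grey), for the 6 regulators, 4 groups of related genes and all coding genes. The bars for the regulators and the 19 chosen piRNA pathway genes are purple throughout, and that for postmeiotic genes has 7 of 18 genes in purple.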

How the data were processed

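The labels name 4 ATAC-seq libraries, 2 per genotype, and groups follow the genotype label. The authors deposited peak positions, and 2 lists were analysed here, 1 per genotype, with 3 columns (chromosome, start, end) and no score, signal or summit. The sources used here do not say whether a list pools replicates. Per the submitters' processing notes the build was mm10 and the tools were MACS2 2.2.4, Picard 2.20.7, Bowtie2 2.3.4.3 and cutadapt 2.5, with no role, threshold, read shift or filter stated. A longer list can come from deeper sequencing as well as from more open sites.

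The lists had 29656 knockout and 24167 control lines. Intervals repeated on several lines were counted once, which left 21004 and 15376, with the number of lines kept as times listed. Positions were taken as BED and are given 1-based. Genes, promoters and strands came from RefSeq tables of GRCm38.p6, and promoter entries were matched for 4 of the 6 genes. Shared means an overlap of at least 1 bp, and a pair is 1 interval meeting 1 interval. Motifs were searched as exact letters on both strands. Python 3.11.15, numpy 2.4.6, pandas 2.3.3 and matplotlib 3.10.9 were used, and overlaps were checked on made-up intervals against bedtools 2.31.1.

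The genes, gene lists and tests were chosen with earlier results of these data known. Named are all intervals of the 6 genes and, in each related list, up to 4 genes in 1 peak list alone (widest first) and the 3 with the widest interval. Cfap44, Fhl5, Creb1, Atf1, Prm1, Prm2, Tnp1, Tnp2, Acrv1 and Ldhc fall outside this rule. Alternatives were windows of 0, 1, 5 and 20 kb, intervals listed at least 2 times, intervals at least 300 bp wide, equal numbers of the widest intervals, merging within 200 bp, an overlap of 50% of both intervals, and counting intervals up to 500 bp apart as shared.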

Additional observations from a re-analysis of the deposited data

How the results depend on the processing

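Of 68 values recomputed under 10 alternatives, 66 stayed within 1.5 times the reported value. The other 2 both came with intervals listed at least 2 times, where the members had 5 knockout intervals in place of 12, and 1 member, Brdt, had none in either list in place of 0 such members. The control intervals numbered 7 there, so the order of the genotypes turned. With windows of 0 and 1 kb both genotypes had 9 intervals, and with 20 kb the knockout had 15 and the control 10. Under every window, width limit and merging tried, all 6 members kept an interval in both lists. Since they had both with a window of 0 kb, neither wider windows nor merging could remove a member. The narrowest interval of the 6 pairs was 397 bp, above the width limit of 300 bp, so that limit could not remove a member either. The recomputed values are not independent of one another, since the classes of members always add up to 6. Keeping the 15376 widest intervals of each list left the control list unchanged, so its number of member intervals could not move there. With an overlap of 50% of both intervals required, 5 of the 6 sites were shared, since the Tcfl5 pair overlaps by 32.7% of the knockout interval. No paired analysis was possible because 1 list per genotype was analysed and no test was run. The lists give no depth, so a site missing from 1 list may be a site below the calling threshold there.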
